A study of Mus musculus with 4 samples.

Results

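The genes described here are 50 neighbours of Anpep on mouse chromosome 7, all within 8.61 Mb of it, measured from lowest coordinate to lowest coordinate, in assembly GRCm38.p6 as RefSeq annotates it. They were chosen among the genes within about 10 Mb of Anpep with earlier results of these data known. The list is not complete, since 15 other measured genes lie in that interval. Every probe carrying a symbol of the listed genes was taken, which gave 91 of the 45281 probes of the array. A probe was kept where its detection p-value, read as the chance of its signal on background beads, was under 0.01 on 2 or more of the 4 arrays. This left 43 probes of 29 genes, out of 14881 kept probes and 8238 named genes with a kept probe in all. The 2 groups were peritoneal macrophages of CD13 knock out (KO) mice and of wild type (WT) mice, both labelled C57BL/6, with 2 Illumina BeadChips each. Anpep encodes CD13, a cell-surface aminopeptidase. The age, sex and number of animals behind each array, the origin of the targeted allele and the number of generations of backcrossing are not given in the sources used here. The p-values therefore cover no more than the spread between arrays, part or all of which may be technical.

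Genes that lie close together on a chromosome tend to be inherited together. When a targeted allele is made in embryonic stem cells of one strain and bred into another, the DNA on either side of it can remain that of the stem cells over many generations. A gene beside the target can then differ between knockout and wild type animals through its own sequence, or through loss of the target. In these arrays the 2 cannot be told apart, because every KO array carries the targeted allele and no WT array does.

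Values are normalized log2 intensities, on which 1 unit is a doubling, and changes are KO minus WT with the moderated standard error (SE) of limma and 2 arrays per group. Levels of different probes are not comparable, since each probe has its own brightness. Before normalization the median intensity of the KO arrays was 122.4 and 109.0 and that of the WT arrays 167.1 and 127.6. KO arrays had 14740 and 13659 probes above background, and WT arrays 14799 and 14823. Of 7 macrophage markers, 6 were measured, and 0 had a limma adjusted p under 0.05. The mean was lower in KO for 4 of them and higher for 2. Among them Adgre1, which encodes F4/80, had values of 13.23 and 13.24 in KO and of 13.55 and 13.94 in WT. Of 14881 kept probes, 5 (0.0336%) passed upward and 9 (0.0605%) passed downward at a limma adjusted p under 0.05. With median scaling on all probes in place of quantile normalization these were 16 and 183. Anpep itself had values of 11.12 and 11.03 in KO and of 13.58 and 13.40 in WT. It fell by 2.41 log2 units (SE 0.19, limma adjusted p = 0.0236), and its single probe stayed above background in KO. The call of Anpep was lost when any 1 array was left out (limma adjusted p between 0.12 and 0.197) and when all probes were tested without the filter (limma adjusted p = 0.069).

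Of the 43 kept probes of Anpep's neighbours, 1 passed, that of Fah, against 0.0941% of all kept probes. Another 13 probes, of 9 genes, had an unadjusted p under 0.05 with no overlap of the groups but did not pass. With Fah these are 14 of 43 probes (32.6%), where 9.07% of all kept probes met the same criterion, and 8 of the 14 had the higher values in KO and 6 in WT. The groups did not overlap for 23 of the 43 (53.5%), against 39.5% of all kept probes. These counts are descriptions, of genes chosen with earlier results of these data known. Probes of one gene are not independent of each other. Of the 43, 4 were above background in a single group only, 3 of them in WT and 1 in KO, so a difference was built into their selection. These 4, probes of Sema4b, Man2a2 and Aen, are all among the 14.

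**Figure D1:**
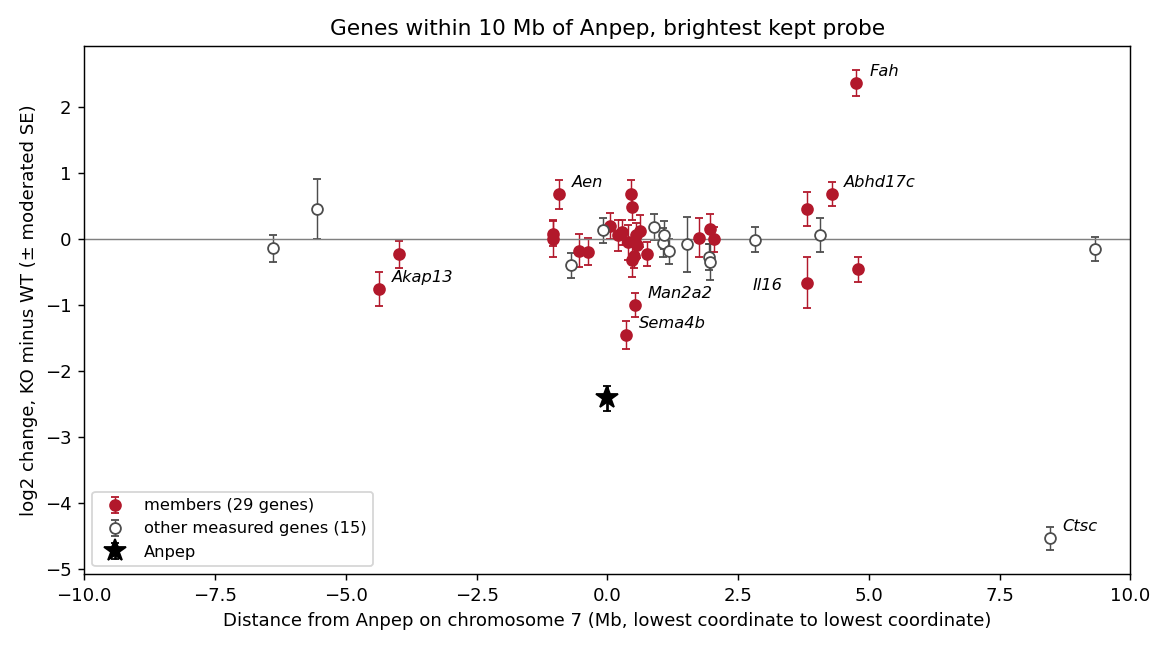
Change in log2 intensity (KO minus WT, bars show the moderated SE, 2 arrays per group) of each measured gene against its distance from Anpep in Mb, with the brightest kept probe standing for a gene. The 29 filled points are the neighbours described here, the 15 open points are other genes of the interval and the star is Anpep. Most points lie near 0, Fah stands at 2.36, and Sema4b and Man2a2 at -1.46 and -1.002.

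Fah encodes fumarylacetoacetate hydrolase, the last enzyme of tyrosine breakdown, best known from liver. Its probe ILMN_2614494 had values of 10.19 and 10.41 on the KO arrays, against 7.86 and 8.02 on the WT arrays. Both KO arrays lay above both WT arrays, with 2.17 log2 units between the nearest of them and at most 0.23 within a group. Fah rose 5.14-fold in KO (log2 change 2.36 ± 0.20, limma adjusted p = 0.0311). The gene lies 4.76 Mb from Anpep, and its nearest neighbour in the list is Zfand6, 0.03 Mb further on between lowest coordinates. Leaving out any 1 array kept the log2 change between 2.25 and 2.47 but ended the call (limma adjusted p between 0.141 and 0.219). Testing all probes without the filter ended it too (limma adjusted p = 0.0915). The promoter of Fah is shown because it is the gene that passed, and the arrays carry no information on promoter sequence. Below, the 250 bases before the start are read 5′ to 3′ from the RefSeq promoter table of GRCm38.p6, with CG dinucleotides in capitals.
Fah, chr7:84605943-84606192, minus strand: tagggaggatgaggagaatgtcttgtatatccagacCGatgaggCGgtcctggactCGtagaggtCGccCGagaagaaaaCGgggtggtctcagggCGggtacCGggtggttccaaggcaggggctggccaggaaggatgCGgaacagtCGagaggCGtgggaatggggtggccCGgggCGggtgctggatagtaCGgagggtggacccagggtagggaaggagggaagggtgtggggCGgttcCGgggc
It holds 16 CG dinucleotides, and 36.6% of promoter windows of genes on the array hold at least as many.

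Sema4b, 0.37 Mb from Anpep, encodes a transmembrane semaphorin, a family of guidance molecules that act between neighbouring cells. Its brighter probe, ILMN_1226447, had values of 9.77 and 9.95 in KO, against 11.15 and 11.49 in WT. Both KO arrays lay below both WT arrays, with 1.20 log2 units between the nearest of them. The log2 change was -1.46 ± 0.21, which did not pass (limma adjusted p = 0.165). It passed in 4 of 16 other settings, among them the authors' normalized values (limma adjusted p = 0.0382). The other probe, ILMN_1223978, had values of 5.17 and 5.54 in KO, not above background, and of 6.42 and 6.55 in WT (limma adjusted p = 0.246). It was kept through WT alone, so its order of the groups was built into the selection and adds nothing to the bright probe. The RefSeq table gives Sema4b 2 starts, whose upstream sequences are set out in the same way because the array does not say which start was in use.
Sema4b, upstream start, chr7:80186620-80186869, plus strand: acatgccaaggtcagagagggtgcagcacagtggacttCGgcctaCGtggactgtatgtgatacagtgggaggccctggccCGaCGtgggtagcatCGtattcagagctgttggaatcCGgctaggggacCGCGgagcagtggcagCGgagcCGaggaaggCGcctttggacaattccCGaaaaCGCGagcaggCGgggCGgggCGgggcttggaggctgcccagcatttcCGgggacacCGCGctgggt
Sema4b, downstream start, chr7:80198338-80198587, plus strand: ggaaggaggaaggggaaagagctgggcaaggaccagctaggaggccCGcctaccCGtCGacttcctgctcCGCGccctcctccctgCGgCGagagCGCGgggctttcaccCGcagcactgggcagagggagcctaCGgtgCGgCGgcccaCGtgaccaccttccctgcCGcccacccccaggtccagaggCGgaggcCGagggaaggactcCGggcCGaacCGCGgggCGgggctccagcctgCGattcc
They hold 20 and 23 CG dinucleotides, which 25.6% and 18.7% of the windows of array genes match or exceed.

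**Figure D2:**
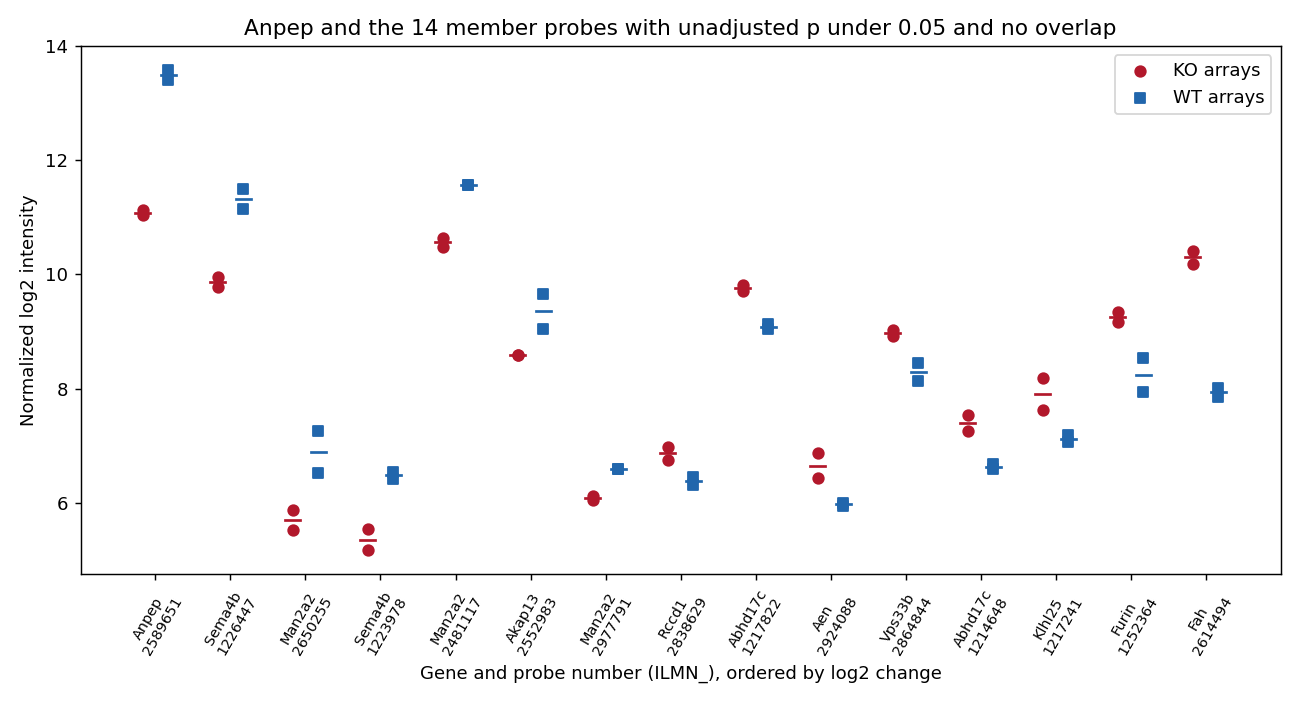
Normalized log2 intensity of Anpep and of the 14 probes of its neighbours with an unadjusted p under 0.05 and no overlap, ordered by log2 change, with a point for each array (KO circles left, WT squares right) and a line at each group mean. The gap between groups is widest for Anpep and Fah.

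Man2a2, 0.53 Mb from Anpep, encodes a Golgi alpha-mannosidase that trims N-linked glycans. Its brightest probe, ILMN_2481117, had values of 10.48 and 10.64 in KO, against 11.56 and 11.57 in WT. The WT arrays were nearly equal and both KO arrays lay below them (log2 change -1.002 ± 0.18, limma adjusted p = 0.23). Probe ILMN_2650255 had values of 5.53 and 5.88 in KO, not above background, and of 7.26 and 6.52 in WT, at least 1.31-fold lower in KO (limma adjusted p = 0.355). Probe ILMN_2977791 had values of 6.05 and 6.12 in KO, again not above background, and of 6.60 and 6.59 in WT, at least 1.07-fold lower (limma adjusted p = 0.489). Both dim probes were kept through WT alone, so their direction was built into the selection and adds nothing to the brightest probe, and 0 of the 3 passed. The bounds are small because the lowest signal counted as detected lies close to the WT values of these dim probes.

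The other enzymes did not pass. Furin, 0.57 Mb from Anpep, encodes the proprotein convertase that cleaves precursors in the trans-Golgi network, and its 2 kept probes disagreed. The bright probe, ILMN_3148489, had values of 13.15 and 12.92 in KO and of 13.08 and 13.18 in WT, so that the groups overlapped (log2 change -0.09 ± 0.19, limma adjusted p = 0.935). The dimmer one, ILMN_1252364, had values of 9.17 and 9.34 in KO and of 8.55 and 7.94 in WT (log2 change 1.01 ± 0.26, limma adjusted p = 0.359). The files do not say which transcripts each probe reads. Abhd17c, 4.29 Mb away, encodes a hydrolase that removes palmitate from proteins, and both its probes had higher values in both KO arrays. Probe ILMN_1217822 had values of 9.71 and 9.81 in KO and of 9.13 and 9.04 in WT (log2 change 0.67 ± 0.18, limma adjusted p = 0.388). Probe ILMN_1214648 had values of 7.25 and 7.54 in KO and of 6.68 and 6.59 in WT (log2 change 0.76 ± 0.20, limma adjusted p = 0.369). Abhd17c lies 0.476 Mb from Fah. Abhd2, another alpha/beta hydrolase, had values of 6.51 and 6.75 in KO and of 7.07 and 6.55 in WT on its brighter kept probe, ILMN_2620767. The groups overlapped on both its kept probes (log2 changes of -0.18 and -0.17). The upstream sequence of Abhd17c is given for comparison with Fah.
Abhd17c, chr7:84151894-84152143, minus strand: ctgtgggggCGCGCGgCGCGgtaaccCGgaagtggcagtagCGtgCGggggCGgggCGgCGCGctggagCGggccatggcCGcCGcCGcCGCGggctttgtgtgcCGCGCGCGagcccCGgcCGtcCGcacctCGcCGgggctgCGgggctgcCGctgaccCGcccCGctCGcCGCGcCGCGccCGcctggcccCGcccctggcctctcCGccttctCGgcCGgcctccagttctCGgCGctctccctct
It holds 43 CG dinucleotides, a number reached by 1.0% of the windows of array genes.

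Among genes of membrane traffic and the cytoskeleton, 4 of 8 were measured and 0 passed. Vps33b, 0.45 Mb from Anpep, encodes a Sec1/Munc18 protein of endosome and granule traffic. Its probe ILMN_2864844 had values of 8.93 and 9.03 in KO and of 8.45 and 8.14 in WT, a log2 change of 0.68 ± 0.20 (limma adjusted p = 0.416). The other probe of Vps33b, ILMN_2422410, had a log2 change of 0.42 ± 0.22 with the same order of the groups (8.76 and 8.32 in KO, 8.08 and 8.17 in WT). Unc45a, a co-chaperone of myosin, had values of 10.15 and 10.23 in KO and of 10.42 and 10.48 in WT on probe ILMN_1253134, and of 8.10 and 8.36 in KO and of 8.52 and 8.54 in WT on probe ILMN_1255175. Both KO arrays lay below both WT arrays on each, with log2 changes of -0.25 and -0.30. Ap3s2, a small subunit of the AP-3 sorting adaptor and at 0.05 Mb the nearest measured gene of the list, had overlapping values of 7.25 and 7.46 in KO and of 7.06 and 7.26 in WT. Whamm, which promotes actin branching on Golgi membranes, also overlapped (log2 change 0.02 ± 0.30).

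Signalling and adhesion genes gave 6 measured of 7, of which 5, Sema4b included, had a lower mean in KO on their brightest probe and 0 passed. Akap13, an anchoring protein for kinase A, lies 4.37 Mb on the other side of Anpep. Its values were 8.59 and 8.60 in KO, against 9.05 and 9.67 in WT (log2 change -0.76 ± 0.25, limma adjusted p = 0.452). The change was -0.45 without WT array 2 and -1.07 without WT array 1. Crtc3, a coactivator of CREB, was read in opposite directions by its 2 probes. Probe ILMN_1214578 had values of 8.46 and 8.55 in KO and of 8.71 and 8.77 in WT (log2 change -0.24 ± 0.18). Probe ILMN_1248891 had values of 7.77 and 7.96 in KO and of 7.48 and 7.35 in WT (log2 change 0.45 ± 0.19). Il16, the precursor of a chemoattractant for CD4+ cells, had values of 7.22 and 8.36 in KO and of 8.36 and 8.55 in WT. The lower mean of Il16 in KO rests on KO array 1. Fes, a tyrosine kinase of myeloid cells, had values of 10.94 and 10.81 in KO and of 10.87 and 10.78 in WT. Cib1, a calcium- and integrin-binding protein, had values of 10.86 and 11.48 in KO and of 11.13 and 11.32 in WT. Both overlapped between groups (log2 changes of 0.06 ± 0.18 and -0.06 ± 0.26). The lowest coordinates of Fes and Furin lie 0.011 Mb apart, and the bright probe of each had a change smaller than its SE.

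Genes of DNA repair and division gave 5 measured of 7, with 0 passing. Aen, a nuclease induced by p53, had values of 6.43 and 6.87 in KO and of 5.95 and 6.00 in WT, where it was not above background, so it was at least 1.26-fold higher in KO (limma adjusted p = 0.444). The kept probe of Aen passed the filter through KO alone, so its direction was built into the selection. Rccd1, a partner of a histone demethylase in human cells, had values of 6.98 and 6.76 in KO and of 6.31 and 6.46 in WT (log2 change 0.49 ± 0.19, limma adjusted p = 0.55). Prc1, which bundles microtubules of the dividing spindle and neighbours Rccd1, had values of 7.18 and 7.66 in KO and of 7.54 and 7.95 in WT. The groups overlapped for Prc1 (log2 change -0.32 ± 0.26). They also overlapped for Blm, a RecQ helicase, with values of 6.67 and 7.16 in KO and of 6.64 and 6.95 in WT. Polg, the polymerase of mitochondrial DNA, had values of 8.72 and 8.41 in KO and of 8.66 and 8.86 in WT, again with overlap. The 6 measured markers of dividing cells had a summed linear intensity of 575 and 725 in KO and of 759 and 749 in WT. They differed among themselves. Birc5 was higher in both KO arrays (log2 change 0.92 ± 0.25), and Aurkb and Pcna were lower in both (log2 changes of -0.86 ± 0.29 and -0.54 ± 0.22). Cdk1, Mcm2 and Top2a overlapped between groups. The part of these markers in the value of Prc1 was not tested.

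Of 5 mitochondrial genes 4 were measured, all with overlapping groups, and their log2 changes on the brightest probe lay between -0.19 for Polg and 0.10 for Idh2. Idh2 encodes the mitochondrial NADP-dependent isocitrate dehydrogenase and had values of 10.38 and 10.46 in KO and of 10.41 and 10.23 in WT. Mrpl46 and Mrps11 encode proteins of the large and the small mitochondrial ribosomal subunit. Among the 44 listed genes with a RefSeq promoter window, they form the only pair with divergent starts within 2 kb. Mrpl46 had values of 10.44 and 11.15 in KO and of 10.75 and 10.83 in WT. The brighter probe of Mrps11 had values of 9.29 and 9.43 in KO and of 9.36 and 9.20 in WT. Its other probe, ILMN_2681946, had values of 8.94 and 9.51 in KO and of 9.13 and 9.27 in WT. Both genes overlapped between groups, with log2 changes of 0.00 ± 0.28 for Mrpl46 and of 0.08 ± 0.19 and 0.02 ± 0.25 for Mrps11. The starts are 42 bases apart, and the 41 bases between them, shown as the stretch that both genes share upstream, hold 6 CG dinucleotides.
Mrpl46 to Mrps11, chr7:78783090-78783130, plus strand: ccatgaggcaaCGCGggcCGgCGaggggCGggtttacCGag

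Genes of transcription and ubiquitin transfer gave 4 measured of 7. Klhl25, a substrate adaptor of a Cul3 ubiquitin ligase, lies 3.97 Mb from Anpep on the side of Akap13, and its probes disagreed. Probe ILMN_1217241 had values of 8.18 and 7.63 in KO and of 7.06 and 7.18 in WT (log2 change 0.78 ± 0.24, limma adjusted p = 0.426). Probe ILMN_2455390 had a log2 change of -0.24 ± 0.20, with the groups in the opposite order. Zfand6, a zinc finger protein encoded beside Fah, had groups without overlap on its bright probe only. That probe had values of 12.16 and 11.96 in KO and of 12.53 and 12.51 in WT (log2 change -0.46 ± 0.19, limma adjusted p = 0.553). On the other kept probe of Zfand6 the groups overlapped (log2 change 0.01 ± 0.20). Zfp710, a zinc finger protein 0.20 Mb from Anpep, had values of 10.28 and 10.76 in KO and of 10.45 and 10.50 in WT on its kept probe. The groups overlapped for Zfp710 and for Btbd1 (log2 changes of 0.05 ± 0.23 and 0.15 ± 0.23). Of the lipid genes, both probes of Stard5, which encodes a sterol-binding START protein, had higher values in both KO arrays (log2 changes of 0.55 ± 0.26 and 0.45 ± 0.26, limma adjusted p = 0.611 and 0.689). The changes of Tm6sf1 were smaller than their SE (log2 changes of -0.05 ± 0.27 and -0.01 ± 0.19).

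**Figure D3:**
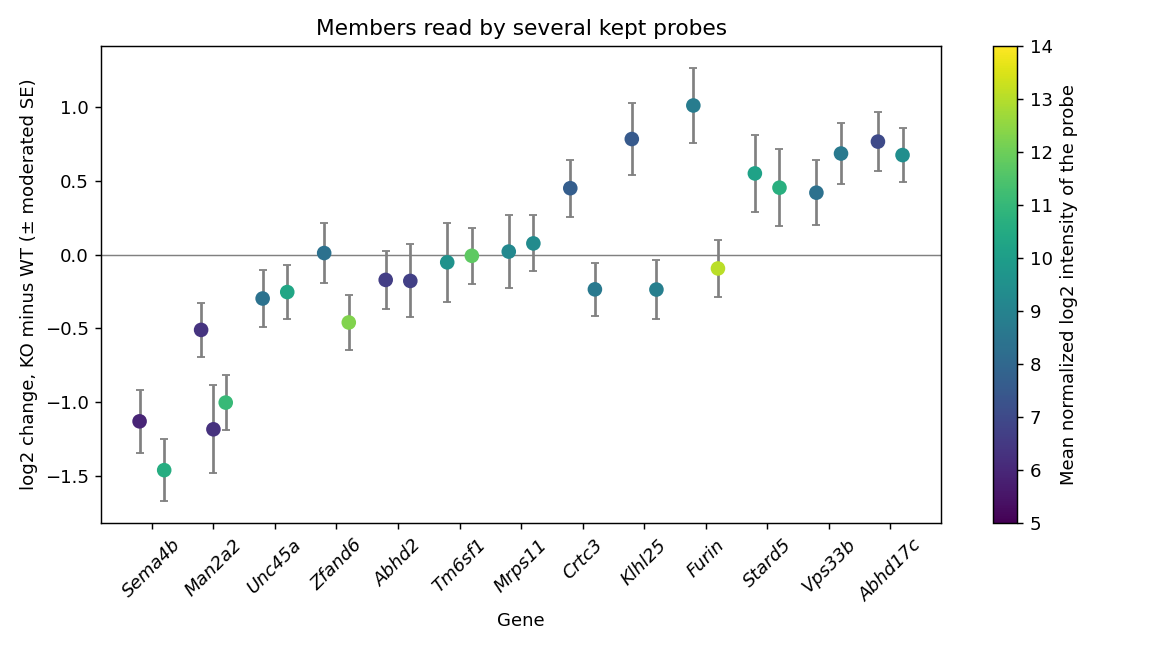
Change in log2 intensity (KO minus WT, bars show the moderated SE) of each kept probe of the 13 genes read by several, coloured by the mean log2 intensity of the probe. The probes of 9 genes share a sign, which for the dim probes of Sema4b and Man2a2 was built into their selection, while those of Crtc3, Furin, Klhl25 and Zfand6 lie on both sides of 0. For Furin and Zfand6 the smaller of the changes was less than its SE.

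For 21 of the 50 genes, 0 probes were above background on any array, and no value of theirs exceeded 5.94. They include genes of pigment (Tyr, Rab38), cartilage matrix (Acan, Hapln3), retina (Rlbp1), fat droplets (Plin1), kidney ammonium transport (Rhcg) and nerve cells (Ntrk3, Arnt2, Homer2, Sh3gl3). The others are Fanci, Det1, Ngrn, Kif7, Hddc3, Nox4, Folh1, Mesp1, Bnc1 and Wdr93. Not being above background is a limit of these probes and does not show that a transcript is absent. RefSeq promoter windows were found for 44 of the 50 genes. Measured genes of the list had a median of 17 CG dinucleotides in the upstream 250 bases (32 windows), against 13 for those not measured (21 windows). Over the whole array the medians were 16 with a kept probe and 6 without. Tyr, which encodes the melanin-forming enzyme tyrosinase, has 0, and its window is shown as the contrast to Fah.
Tyr, chr7:87493513-87493762, minus strand: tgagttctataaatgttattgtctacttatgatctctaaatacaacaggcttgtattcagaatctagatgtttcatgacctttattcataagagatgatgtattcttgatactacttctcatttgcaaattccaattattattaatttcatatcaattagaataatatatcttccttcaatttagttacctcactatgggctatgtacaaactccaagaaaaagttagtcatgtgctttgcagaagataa

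By distance, the neighbours were set beside the other genes of the interval, the rest of the chromosome and all other chromosomes, with the brightest kept probe for each gene and Anpep left out. An unadjusted p under 0.01 was found for 3 of the 29 genes (10.3%), namely Fah, Sema4b and Man2a2, and for 1 of the 15 others within 10 Mb (6.67%). The share was 8.89% of 45 genes at 10 to 20 Mb, 5.96% of 151 at 20 to 40 Mb, 4.16% of 385 beyond 40 Mb and 1.92% of 7599 on other chromosomes. A change of at least 1.5-fold was seen for 27.6% of the neighbours, for 6.67% of the other genes within 10 Mb and for 13.3% to 13.9% in the 3 classes farther out, against 8.76% on other chromosomes. The median size of the change, whatever its sign, was 0.24 log2 units for the neighbours, 0.15 for the others within 10 Mb, 0.21 in each class farther out and 0.18 on other chromosomes. The signed median of the neighbours was 0.00, with 15 of 29 higher in the mean and 14 lower. No order by distance held within the interval, since 2 of 20 genes within 1 Mb had an unadjusted p under 0.01, 1 of 20 at 1 to 5 Mb and 1 of 4 at 5 to 10 Mb. All 3 such neighbours lie on the side of Anpep with higher coordinates, where 22 of the 29 are, and the 7 on the other side gave 0. Of all 44 measured genes within 10 Mb, listed or not, 9.09% had an unadjusted p under 0.01 and 20.5% changed at least 1.5-fold. The listed neighbours were chosen with earlier results of these data known, so their shares can reflect that choice. Neighbouring genes are not independent, and no test was made of these shares.

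**Figure D4:**
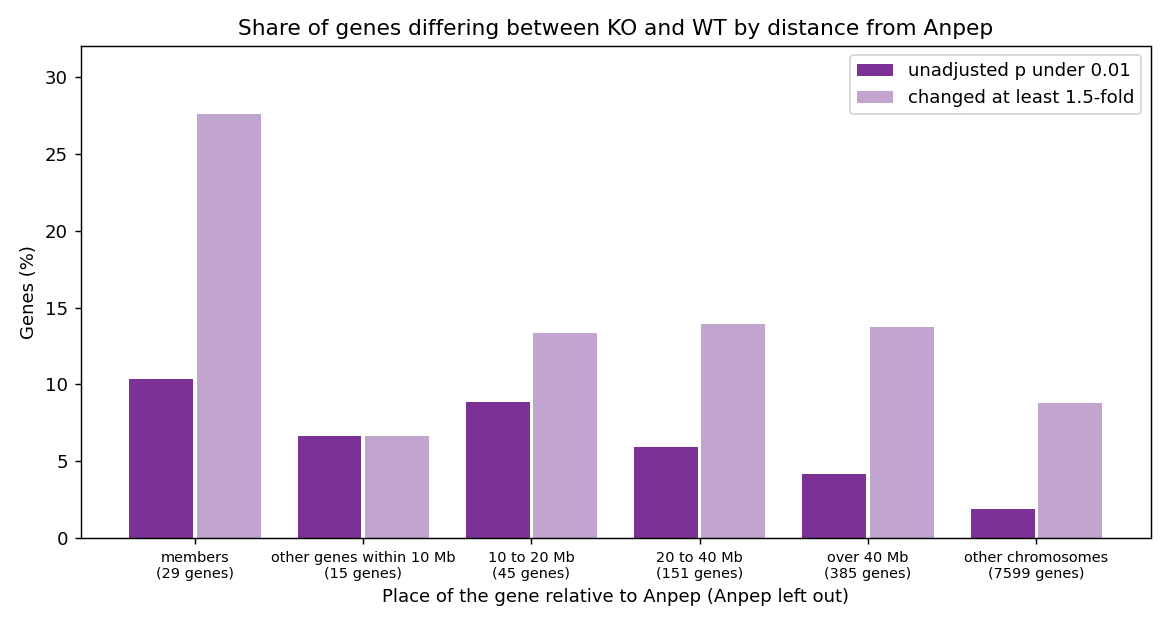
Percent of genes with an unadjusted p under 0.01 (dark bars) and with a change of at least 1.5-fold (light bars) between KO and WT, by distance from Anpep, with other chromosomes at the right. The neighbours described here stand at 10.3% and 27.6%, other chromosomes at 1.92% and 8.76%. These neighbours were chosen with earlier results of these data known.

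The other gene of the interval that passed is Ctsc, which encodes the lysosomal protease cathepsin C and lies 8.46 Mb from Anpep. Its brightest probe had values of 9.21 and 9.19 in KO and of 13.72 and 13.75 in WT (log2 change -4.54 ± 0.18, limma adjusted p = 0.00154). Between Fah and Ctsc the listed genes Zfand6, Folh1, Nox4 and Tyr gave 1 measured gene, Zfand6, so the arrays hold little information on that stretch. Levels of cell type markers were set beside these values. Markers of large peritoneal macrophages, the most abundant macrophages of the resting cavity, had lower means in KO for 7 of 7 measured, and 0 passed. F5, Itgam, Alox15, Timd4 and Tgfb2 were lower in both KO arrays without overlap (log2 changes of -1.72, -1.59, -1.39, -1.29 and -1.03). The groups overlapped for Gata6 (9.88 and 9.17 in KO, 9.45 and 10.62 in WT) and for Icam2 (11.19 and 10.70 in KO, 11.10 and 12.65 in WT). The summed linear intensity of the 7 markers was 5901 and 4734 in KO and 7663 and 17918 in WT, so the WT arrays differed widely. The 3 measured B cell markers summed to 1506 and 2446 in KO and to 2559 and 3253 in WT, while Cd79a and Pax5 were not measured. Cd22 was higher in both KO arrays, and Cd79b and Ms4a1 were lower in both (log2 changes of 0.93, -1.02 and -1.23). The 3 measured T and NK cell markers summed to 15940 and 12011 in KO and to 13450 and 10798 in WT, a sum made up mostly of Il7r, and they differed among themselves. Lat had values of 9.70 and 9.29 in KO and of 6.86 and 8.04 in WT, without overlap (log2 change 2.05 ± 0.41, limma adjusted p = 0.272). Il7r and Cd2 overlapped between groups (log2 changes of 0.15 ± 0.25 and -0.32 ± 0.46), and Cd3e, Cd3d and Cd3g did not pass the filter. Of 4 measured neutrophil markers, Ltf was higher in both KO arrays (log2 change 2.00 ± 0.44, limma adjusted p = 0.289), while Mmp9, S100a8 and S100a9 overlapped. Plac8 and Irf4, of small peritoneal macrophages or monocytes, were lower in both KO arrays (log2 changes of -1.20 ± 0.25 and -0.55 ± 0.19) and did not pass. Of mast cell and eosinophil markers, Cpa3 was lower in both KO arrays and Kit overlapped (log2 changes of -0.80 ± 0.37 and 0.17 ± 0.31). In bulk samples fewer cells of a type and less RNA per cell cannot be told apart. The part of these markers in the values of Fah, Sema4b, Man2a2 and the other neighbours was not tested.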

How the data were processed

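Biotin-labelled cRNA from 4 samples was hybridised to Illumina mouse whole-genome BeadChips. The authors deposited the average bead intensity of each probe without normalization between arrays, with a detection p-value per array, per the file headers. A further table of intensities was quantile normalized in GenomeStudio by the authors, per the series text. Whether background was subtracted, and the GenomeStudio version, are not given in the sources used here.

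Signals were background corrected with normexp informed by the detection p-values (offset 16), quantile normalized and log2 transformed (neqc steps in limma 3.58.1, R 4.3.3). KO was compared with WT by lmFit and eBayes over all 14881 kept probes, with Benjamini-Hochberg adjustment. The smallest two-sided exact permutation p for 1 probe in groups of 2 is 0.333. Of 45281 probes, 34885 had 1 symbol in the platform annotation, 18 several and 10378 none, and 34807 matched the RefSeq table of GRCm38.p6, which gave names and distances between the lowest coordinates of genes. The files name no genome build. The pipeline was tested on simulated data.

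A probe below background on all arrays of a group has only a bound, computed against its own value or the lowest detected value of that array, whichever was higher. The number of arrays limits the precision. Every gene of the list was named, with all its kept probes. The genes and lists were chosen with earlier results of these data known. Deviations of same-numbered arrays from their group means had a correlation of 0.02 over probes, so the numbers were not treated as pairs. Alternatives covered background correction, normalization, filters, probe choice, variance model, replicate block and single arrays left out.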

Additional observations from a re-analysis of the deposited data

How the results depend on the processing

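Fah kept its direction in all 16 other settings, with log2 changes of 1.97 to 2.47, and passed in 11 of them. It did not pass without the filter on dim probes (log2 change 2.36, limma adjusted p = 0.0915, more probes tested) or without single arrays (log2 changes of 2.25 to 2.47), where fewer samples remain and 1 array stands alone, with a spread taken from the other group. The number of neighbour probes that passed, 1 above, was 2 without background correction, 2 with the authors' values, 2 with an intensity trend (Fah and Sema4b each time), 3 with median scaling on all probes (Man2a2 as well), 0 without the filter and 0 when any single array was left out. Over all kept probes, 5 higher and 9 lower became 11 and 21 without background correction, 11 and 21 with the authors' values, 16 and 183 with median scaling on all probes, 3 and 4 without the filter, 2 higher for probes detected on all 4 arrays, 5 lower with 1 probe per gene, and 10 and 17 with an intensity trend. Without single arrays they lay between 3 and 7 higher and between 3 and 8 lower. Median scaling on all probes shifted the median of all kept probes to -0.33 and that of the neighbours to -0.34, and moved the share of lower calls to 92.0%, against 64.3%; the cause was not tested. The median of the neighbours otherwise stayed between -0.13 and 0.08. The share of genes within 10 Mb with an unadjusted p under 0.01, 9.09%, was 6.82% to 13.6% in the other settings, 7.5% in a window of 5 Mb and 8.99% in one of 20 Mb, while other chromosomes gave 0.855% to 4.69%. The replicate block kept 1 neighbour probe past the threshold (Fah, limma adjusted p = 0.0228) and changed no call of Anpep, Ctsc or a neighbour. The 14 neighbour probes with an unadjusted p under 0.05 and no overlap, Fah among them, kept their direction in every setting that tested them. For the dim probes of Sema4b, Man2a2 and Aen among them, that direction was built into the selection. Only the changes of background correction and normalization could have reversed the direction of any of the 14. Leaving out 1 array cannot reverse groups that do not overlap. The filters, probe choice, variance model and replicate block leave the log2 change as it is.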

Other observations

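Among the 48 probes of Anpep's neighbours that were not kept, 44 were above background on no array and 4 on 1 array, and 3 of the 48 were picked out after their values were seen. A probe of Zfp710, ILMN_2627013, had values of 6.21 and 6.23 on the KO arrays and of 5.21 and 5.32 on the WT arrays, while the groups overlapped on the kept probe of the same gene. A probe of Blm, ILMN_2774640, had values of 5.69 and 5.55 in KO and of 6.29 and 6.32 in WT, while the kept probe of Blm overlapped between groups. The remaining probe of Man2a2, ILMN_1226901, had values of 5.15 and 5.87 in KO and of 6.81 and 5.56 in WT, above background on 1 WT array. No fold is given for these probes, since both groups are at or near background.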
